A study of Mus musculus with 32 samples.

Results

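The genes of the N6-methyladenosine (m6A) writer were followed through retinal organoid differentiation of mouse embryonic stem cells in which Mettl3 was labelled as knocked out and then added back. The 9 genes were taken by name as the methyltransferase Mettl3, its partners Mettl14, Wtap, Virma, Zc3h13, Cbll1, Rbm15 and Rbm15b, and the separate methyltransferase Mettl16. All 9 were found among the 55492 rows of the deposited table, and all 9 passed the filter on low values. Polyadenylated RNA had been sequenced in 32 libraries, 2 for each of 16 groups. WT is the Rx:GFP stem cell line (Rx, or Rax, is an early eye gene and GFP a fluorescent reporter), and KO is the line labelled Mettl3 KO. The other cultures are the Mettl3 KO line overexpressing wild-type METTL3 joined to a domain called GRBD, kept without dexamethasone (Dex, a synthetic glucocorticoid) or given Dex at 10 µM. In the design text the fusion protein is cytosolic without Dex and nuclear with it. Each of the 4 kinds of culture was sampled as stem cells at day 0 and as organoids at days 2, 4 and 6, and the organoid medium held AGN at 0.1 µM. Day 0 libraries are also labelled with and without Dex, although the treatment protocol gives 2, 4 and 6 days of Dex. The knockout and fusion lines are not described as more than 1 clone each, and the duplicates are described as separate library preparations rather than separate cultures, so p-values here measure the spread between libraries. A dexamethasone control without the fusion protein was not analysed here.

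The m6A writer is a nuclear complex. METTL3 carries the active site and binds the methyl donor S-adenosylmethionine, and METTL14 pairs with it and helps hold the RNA. WTAP, VIRMA, ZC3H13 and CBLL1 form a regulatory part that keeps the pair in the nucleus and positions it, and RBM15 and RBM15B bind RNA and bring the complex to its targets. METTL16 works apart from this complex and methylates the U6 small nuclear RNA and hairpins in the Mat2a messenger RNA. In embryonic stem cells, loss of m6A is known to hinder exit from the pluripotent state.

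The 3 methyltransferase-fold genes share a short catalytic-loop motif, which is shown because it separates the catalytic subunit from its partner. In the coding sequences of GENCODE M21 (GRCm38), the codons for aspartate, proline, proline and tryptophan in Mettl3 are codons 395 to 398 of 580, in exon 6 of 11 of transcript Mettl3-201, at chr14:52297581-52297592 on the minus strand. The matching codons of Mettl14, which start with glutamate and end with leucine, are 192 to 195 of 456, in exon 7 of 11 of Mettl14-201, at chr3:123374805-123374816 on the minus strand. Those of Mettl16, for asparagine, proline, proline and phenylalanine, are 184 to 187 of 593, in exon 5 of 11 of Mettl16-201, at chr11:74792283-74792294 on the plus strand. Capitals mark the motif's codons within 60 bases of coding sequence.
Mettl3: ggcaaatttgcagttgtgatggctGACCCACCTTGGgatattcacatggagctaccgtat
Mettl14: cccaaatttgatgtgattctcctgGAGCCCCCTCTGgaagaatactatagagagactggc
Mettl16: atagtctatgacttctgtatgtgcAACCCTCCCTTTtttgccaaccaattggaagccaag
Gene-level FPKM does not show whether these codons were kept in the KO transcripts.

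Depth was read from the steps between low FPKM values and lay between 28.8 M and 52.7 M fragments in a library. Of the low values, 84.4% to 92.3% lay within 0.2 of a whole fragment (40% for evenly spread values). Depth and fragment length were chosen to fit these same values best, so the share is no independent check. The highest depth and the lowest share were both in KO day 2 replicate 1, whose duplicate was at 33.6 M. At these depths each writer gene had at least 852 fragments in every library, so counting error alone was at most 3.43% of a value. Stem cell markers (Pou5f1, Nanog, Zfp42, Esrrb and Klf4) summed to between 1696.69 and 1952.06 FPKM in day 0 libraries and fell by day 6 to 75.15 to 75.83 FPKM in WT, 26.48 to 28.38 in KO, 29.76 to 31.21 in the fusion line without Dex and 25.77 to 27.48 with Dex. Eye-field markers (Rax, Six3, Six6, Lhx2 and Pax6) reached 646.68 to 680.93 FPKM in WT at day 6 against 116.83 to 118.42 FPKM in KO, where Rax, Six3 and Six6 stayed below 1 FPKM and Pax6, at 111.70 FPKM against 110.11 FPKM in WT, made up most of the sum. In the fusion line the eye-field sum was 182.30 to 185.92 FPKM without Dex and 416.33 to 416.53 FPKM with Dex. The sum of the neural markers (Sox1, Nes and Tubb3) ran the other way at day 6. It was 116.51 to 118.70 FPKM in WT, 370.76 to 373.82 in KO, 305.38 to 311.53 without Dex and 231.17 to 236.50 with Dex. Most of the difference between these sums lay in Tubb3, a neuronal tubulin, at 29.18, 266.15, 212.04 and 133.58 FPKM in the same order. Sox1 (46.45, 54.89, 42.5 and 45.81 FPKM) and Nes (41.97, 51.24, 53.92 and 54.44 FPKM) did not rank the cultures this way. Tubb3 was already at 155.56 to 208.19 FPKM in the day 0 group means, above WT at day 6. Summed markers of extraembryonic endoderm (Gata4, Gata6, Sox17, Sox7 and Dab2) were higher in WT, at 63.58 to 63.61 FPKM against 11.37 to 11.41 FPKM in KO at day 6. At that day 4 of these 5 genes were below 1 FPKM in KO and none in WT. In bulk RNA, fewer cells of a type and less RNA per cell cannot be told apart, and the part of these marker sets in the differences below was not tested.

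**Figure D1:**
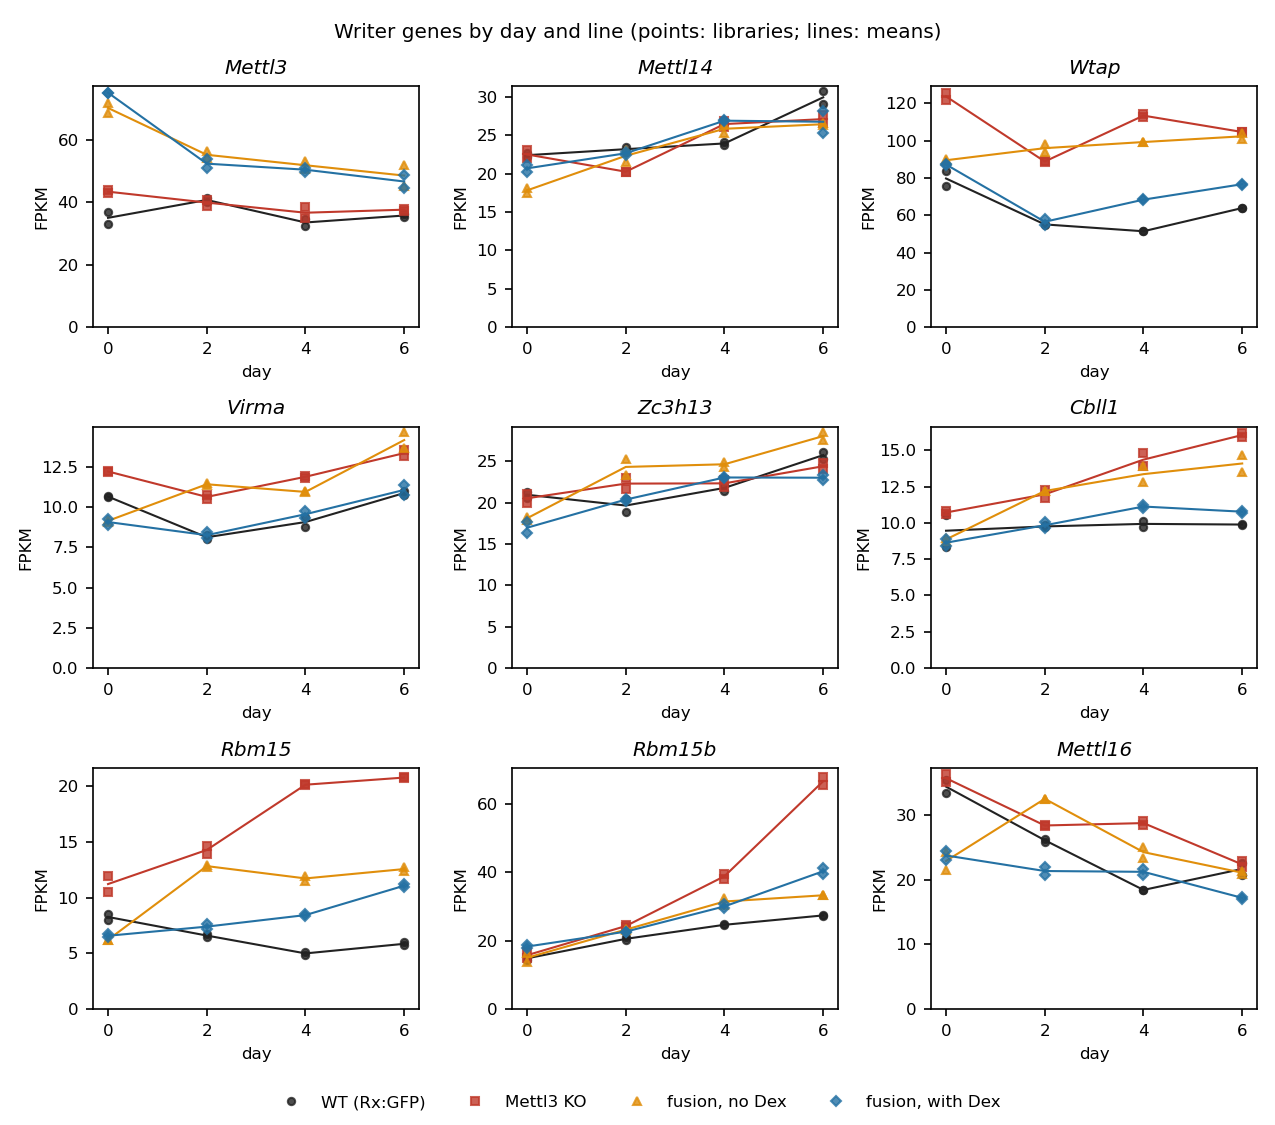
Level in FPKM of each writer gene (y axis, from 0) against the day of differentiation (x axis), with a point for each of the 32 libraries and lines through the means of 2 libraries. Rbm15 and Rbm15b separate KO from WT by day 6, Wtap separates KO and fusion without Dex from WT, and Mettl3 is highest in both fusion groups.

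FPKM is scaled by transcript length, so levels can be set side by side. Wtap was the most abundant writer gene in the median of the 32 libraries, at 87.94 FPKM, followed by Mettl3 at 44.14 FPKM. Rbm15b, Mettl14, Mettl16 and Zc3h13 lay close together, with medians of 24.48, 23.62, 23.24 and 22.40 FPKM. Cbll1, Virma and Rbm15 were lowest, at 10.76, 10.75 and 9.52 FPKM. The range over all libraries was widest for Rbm15b, from 13.72 to 67.76 FPKM (4.94-fold), and for Rbm15, from 4.88 to 20.81 FPKM (4.26-fold). Zc3h13 and Mettl14 varied least, by 1.75-fold and 1.76-fold. On the log2(FPKM + 1) scale the SD over the 16 group means was 0.57 for Rbm15 and 0.56 for Rbm15b, against a median of 0.39 over all 16276 tested genes and 0.18 for Zc3h13.

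Mettl3 mRNA was present in every library labelled KO. At day 0 the 2 WT libraries held 36.80 and 33.15 FPKM and the 2 KO libraries 43.83 and 42.88 FPKM. The groups did not overlap, and the difference in log2(FPKM + 1) was 0.30 ± 0.06 (SE, limma adjusted p = 0.000417). When these 4 libraries were fitted alone the adjusted p was 0.0578. At day 2 the WT libraries were at 40.19 and 41.21 FPKM and the KO libraries at 38.90 and 40.82 FPKM, overlapping, and Mettl3 did not pass the test at days 2, 4 or 6 (adjusted p = 0.713, 0.0904 and 0.325). Rescaling by median-of-ratios factors brought the day 2 difference to -0.15 with an adjusted p of 0.0453. Leaving out KO replicate 1 at day 4 brought that day's difference to 0.19 (adjusted p = 0.0331). The row therefore gave no check of the knockout label, and the label was followed.

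The fusion line held more Mettl3 mRNA. Without Dex its day 0 libraries were at 68.52 and 71.78 FPKM and with Dex at 75.06 and 75.01 FPKM, the 4 highest values of the series. At day 6 the values were 45.16 and 51.86 FPKM without Dex and 44.46 and 48.76 FPKM with Dex, above the KO libraries at 37.86 and 37.32 FPKM. Against KO, the fusion line without Dex was higher by 0.68, 0.46, 0.49 and 0.36 at days 0, 2, 4 and 6 in log2(FPKM + 1) (SE 0.06 each, limma adjusted p from 2.5e-08 to 7.48e-05). Dex did not move Mettl3 past the threshold at any day, with differences of 0.10, -0.07, -0.04 and -0.05 at days 0, 2, 4 and 6 (SE 0.06 each). The day 2 difference was 0.04 after rescaling. Whether the extra reads came from the fusion transcript or from the locus cannot be told apart in a gene-level row.

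Mettl3 (ENSMUSG00000022160, chr14:52294841-52305128, minus strand) shares 933 exonic bases with Tox4, which runs on the opposite strand, and the sources used here do not say whether counting used strand. Tox4 group means lay between 12.08 and 18.60 FPKM. Tox4 was lower in the fusion line without Dex than in KO at day 0 (13.00 ± 0.08 against 18.60 ± 0.79 FPKM) and higher at day 2 (16.01 ± 1.09 against 12.85 ± 0.20 FPKM, SD, n = 2), while Mettl3 was higher at both days. Its part in the Mettl3 values was not tested.

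Mettl14 (chr3:123368297-123386108, minus strand), the RNA-holding partner, showed small differences of either sign between KO and WT. The day 0 libraries were at 22.66 and 22.12 FPKM in WT and 23.01 and 21.96 FPKM in KO, overlapping (adjusted p = 0.948). In KO it differed by -0.19 ± 0.04 at day 2, 0.14 ± 0.04 at day 4 and -0.14 ± 0.04 at day 6 (SE, adjusted p = 0.00127, 0.0107 and 0.0101). Rescaling brought the day 2 difference to -0.30. The calls at days 4 and 6 were lost after rescaling (0.04 and -0.10) and when single libraries were left out. These were WT replicate 1 (0.13) or KO replicate 1 (0.12) at day 4, and WT replicate 2 (-0.10) or KO replicate 2 (-0.11) at day 6. The lowest level of Mettl14 was in the fusion line at day 0, where the libraries without Dex held 18.11 and 17.50 FPKM. There it was below KO by 0.32 ± 0.04 (SE, adjusted p = 5.95e-06), and it was higher with Dex than without by 0.21 ± 0.04 (SE, adjusted p = 0.00089). After rescaling these were -0.20 and 0.13, both still called.

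The ratio of Mettl3 to Mettl14 FPKM within a library was higher in the fusion line, where Mettl3 mRNA was higher. At day 0 without Dex its Mettl14 was also lower than in KO (17.8 ± 0.43 against 22.48 ± 0.74 FPKM, SD, n = 2), which adds to the ratio. In WT it was 1.62 and 1.5 in the day 0 libraries and 1.25 and 1.14 in the day 6 libraries. In the fusion line it was 3.78 and 4.10 without Dex and 3.55 and 3.72 with Dex at day 0, and 1.72 and 1.95 without Dex and 1.58 and 1.93 with Dex at day 6. Both fusion groups lay above WT and KO at each of the 4 days, with no overlap between libraries. The smallest gap was at day 6, where the highest KO library stood at 1.41.

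**Figure D2:**
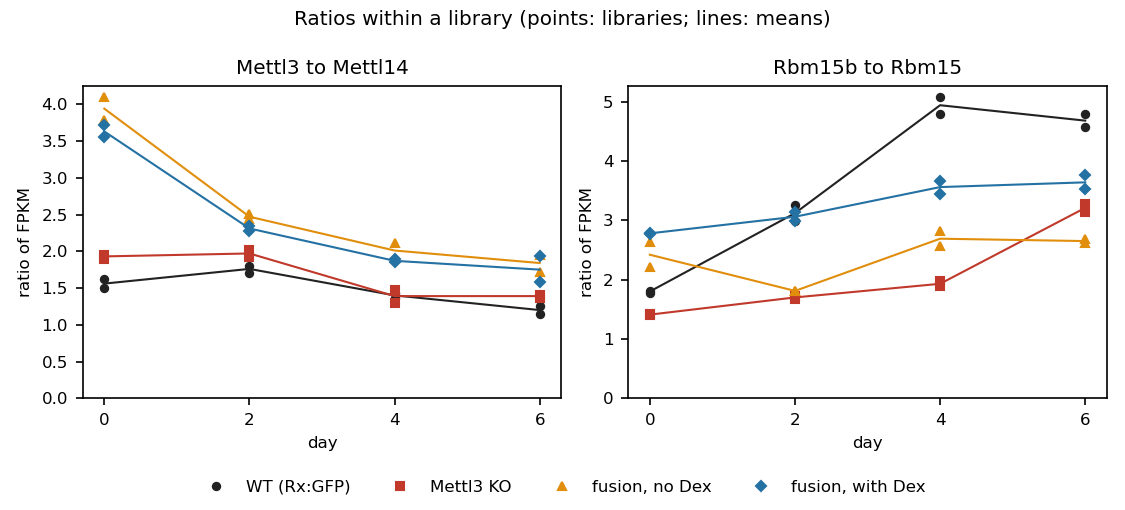
Ratio of FPKM values within a library (y axis, from 0) against the day (x axis) for Mettl3 to Mettl14 and for Rbm15b to Rbm15, with points for libraries and lines through the means of 2. The fusion line starts near 4 in the first ratio at day 0 and nears the other lines by day 6, and WT has the highest values of the second ratio at days 4 and 6.

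Among the adaptors, Wtap (chr17:12966796-12994169, minus strand), which anchors the methyltransferase pair in nuclear speckles, was higher in KO at every day. At day 0 WT libraries were at 75.58 and 83.84 FPKM and KO libraries at 125.61 and 121.84 FPKM. At day 4 they were at 51.31 and 51.50 FPKM against 114.27 and 112.61 FPKM, more than doubled, and at day 6 at 63.88 and 63.84 against 104.74 and 104.57 FPKM. KO and WT libraries did not overlap at any day. The differences in log2(FPKM + 1) were 0.63, 0.68, 1.13 and 0.70 at days 0, 2, 4 and 6 (SE 0.03 each, limma adjusted p from 2.02e-15 to 4.19e-11), and Wtap passed the threshold at all 4 days under every alternative run.

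In the fusion line Wtap was lower with Dex than without at days 2, 4 and 6. Dex itself and the nuclear fusion protein cannot be told apart here. Without Dex the libraries were at 98.29 and 93.68 FPKM at day 2, 99.34 and 99.19 at day 4 and 104.04 and 100.65 at day 6, near the KO values. With Dex they were at 55.02 and 57.96 FPKM at day 2, near WT, then at 68.14 and 68.58 at day 4 and 76.44 and 76.86 at day 6, between WT and the cultures without Dex. Dex against no Dex gave -0.76 ± 0.03, -0.53 ± 0.03 and -0.41 ± 0.03 at days 2, 4 and 6 (SE, adjusted p = 1.15e-11, 5.78e-10 and 1.3e-08). At day 0 the difference was -0.04 and did not pass (adjusted p = 0.429), although after rescaling it was -0.12 and passed (adjusted p = 0.00807).

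Virma (chr4:11485958-11550684, plus strand), the large scaffold subunit, moved the same way on a smaller scale. In KO it was higher by 0.18, 0.35, 0.36 and 0.27 at days 0, 2, 4 and 6 (SE 0.04 each, adjusted p from 1.23e-07 to 0.000586). At day 6 WT libraries were at 10.75 and 10.99 FPKM and KO libraries at 13.17 and 13.53 FPKM, without overlap. With Dex it fell by 0.42, 0.18 and 0.33 at days 2, 4 and 6 (SE 0.04 each, adjusted p = 4.76e-08, 0.000923 and 9.48e-07). Fitting the compared groups alone put the day 0 KO difference at an adjusted p of 0.0716 and the day 4 Dex difference at 0.0569.

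Cbll1 (chr12:31484829-31499616, minus strand), a RING-finger protein also called Hakai, drew apart from WT as differentiation went on. WT means stayed between 9.46 and 9.93 FPKM over the 4 days, while KO libraries went from 10.61 and 10.82 FPKM at day 0 to 13.92 and 14.79 at day 4 and 16.21 and 15.89 at day 6. KO exceeded WT by 0.27, 0.49 and 0.65 at days 2, 4 and 6 (SE 0.07 each, adjusted p = 0.00166, 2.55e-06 and 4.8e-08), with 0.16 at day 2 after rescaling. The day 0 difference of 0.17 (adjusted p = 0.0389) rested on WT replicate 2, without which it was 0.02 with an adjusted p of 0.819. It also lost the call without KO replicate 1 (0.18, adjusted p = 0.085) or KO replicate 2 (0.16, adjusted p = 0.141), without the filter on low values (adjusted p = 0.0657) and with the compared groups fitted alone (adjusted p = 0.39). With Dex, Cbll1 was lower than without at days 2, 4 and 6, by 0.29, 0.24 and 0.36 (SE 0.07 each, adjusted p = 0.00164, 0.00618 and 0.000205). The day 2 difference was -0.18 after rescaling. The day 4 call was lost without replicate 1 of the cultures without Dex (-0.19, adjusted p = 0.085).

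Zc3h13 (chr14:75284373-75344426, plus strand), which keeps the complex in the nucleus, changed little between KO and WT. It passed the test at day 2, at 0.18 ± 0.05 (SE, adjusted p = 0.00233), a call lost after rescaling (0.06, adjusted p = 0.263) and without WT replicate 2 (0.12, adjusted p = 0.0575). At day 6 the WT libraries held 26.14 and 25.31 FPKM and the KO libraries 24.77 and 23.99 FPKM. The fusion libraries held 28.51 and 27.54 FPKM without Dex and 22.72 and 23.27 FPKM with Dex, highest and lowest of the 4 cultures. Dex against no Dex at day 6 was -0.27 ± 0.05 (SE, adjusted p = 5.41e-05), and at day 2 it was -0.24 ± 0.05 (adjusted p = 0.000194), or -0.13 after rescaling.

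The RNA-binding recruiters had the largest KO differences of the 9 genes at day 6. Rbm15 (chr3:107325421-107333673, minus strand) fell over time in WT, from 7.97 and 8.54 FPKM at day 0 through 6.71 and 6.47 at day 2 to 5.10 and 4.88 at day 4 and 5.70 and 6.00 at day 6. In KO it climbed from 11.91 and 10.50 FPKM at day 0 through 14.61 and 13.91 at day 2 to 20.14 and 20.08 at day 4 and 20.81 and 20.69 at day 6. KO and WT libraries were apart at every day, and the KO mean at day 4 was 20.11 ± 0.04 FPKM against 4.99 ± 0.16 FPKM in WT (SD, n = 2). On the log2(FPKM + 1) scale KO exceeded WT by 0.40, 1.01, 1.82 and 1.67 at the successive days (SE 0.05 each, limma adjusted p from 1.58e-16 to 9.33e-07). The exception among the alternatives was day 0 with the compared groups fitted alone (adjusted p = 0.0617).

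In the fusion line Rbm15 lay between WT and KO at days 2, 4 and 6. Without Dex the libraries were at 6.22 and 6.20 FPKM at day 0, below WT, then at 12.70 and 12.93 at day 2, 11.51 and 11.91 at day 4 and 12.38 and 12.72 at day 6. With Dex it started alike, at 6.69 and 6.45 FPKM, also below WT. It reached 7.19 and 7.59 at day 2, 8.33 and 8.52 at day 4 and 10.92 and 11.20 at day 6. Values were therefore lower with Dex at days 2 and 4, by 0.72 and 0.43 (SE 0.05 each, adjusted p = 7.21e-10 and 4.95e-07). The day 6 difference of -0.17 (adjusted p = 0.00651) lost its call without replicate 2 of the cultures without Dex (-0.15, adjusted p = 0.0527) or replicate 1 with Dex (-0.15, adjusted p = 0.0523). Against WT, the cultures with Dex were still higher at days 4 and 6, by 0.65 and 0.82 (SE 0.05 each, adjusted p = 1.29e-09 and 1.46e-11).

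Rbm15b (chr9:106880918-106887428, minus strand), the paralog that shares Rbm15's role, rose in all lines with time and most in KO. WT went from 14.42 and 15.24 FPKM at day 0 to 27.33 and 27.43 at day 6, and KO from 16.62 and 14.86 to 65.41 and 67.76 FPKM. At day 0 KO and WT libraries overlapped (adjusted p = 0.282), and at day 6 KO held 2.43 times the WT mean. It was higher in KO by 0.23, 0.64 and 1.25 at days 2, 4 and 6 (SE 0.06 each, adjusted p = 0.0019, 1.17e-08 and 3.21e-13), and the day 2 call was lost after rescaling (0.12, adjusted p = 0.094). The fusion libraries at day 6 were at 33.32 and 33.20 FPKM without Dex and 41.18 and 39.39 FPKM with Dex. Here the Dex difference had the opposite sign to that of Wtap, with 0.27 ± 0.06 higher values with Dex at day 6 (SE, adjusted p = 0.00084). Rbm15b shares 14 exonic bases with Manf and 75 with Dcaf1, and Manf was the more abundant, with group means from 117.48 to 427.64 FPKM. Manf was at 182.64 ± 0.15 FPKM in KO and 117.48 ± 7.21 FPKM in WT at day 6 (SD, n = 2), and its part in the Rbm15b values was not tested.

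The balance of the paralogs changed as well. In WT the ratio of Rbm15b to Rbm15 FPKM went from 1.81 and 1.78 at day 0 to 4.79 and 4.57 at day 6, and in KO from 1.40 and 1.42 to 3.14 and 3.28. At day 4 the KO libraries stood at 1.89 and 1.97 against 4.8 and 5.08 in WT.

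Because Rbm15 and Rbm15b rose together in KO, their RefSeq promoters (GRCm38.p6, 250 bases before to 50 after the start) were compared. RefSeq's table held a promoter for 7 of the 9 genes, all but Mettl14 and Virma. Motifs were searched on both strands, and capitals mark CCAAT (the CCAAT box), GGGCGG (the GC box) and CACGTG (an E-box). Also searched were TATAAA, CCGGAAGT and TGACGTCA, which neither promoter held. The Rbm15 window is chr3:107333240-107333539 and the Rbm15b window chr9:106887026-106887325, both minus strand.
Rbm15: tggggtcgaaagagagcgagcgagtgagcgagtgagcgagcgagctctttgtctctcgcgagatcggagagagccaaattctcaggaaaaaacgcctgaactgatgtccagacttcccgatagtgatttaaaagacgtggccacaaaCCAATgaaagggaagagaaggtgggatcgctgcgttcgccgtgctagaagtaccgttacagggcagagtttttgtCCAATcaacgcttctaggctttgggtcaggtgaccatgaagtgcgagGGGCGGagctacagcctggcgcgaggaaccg
Rbm15b: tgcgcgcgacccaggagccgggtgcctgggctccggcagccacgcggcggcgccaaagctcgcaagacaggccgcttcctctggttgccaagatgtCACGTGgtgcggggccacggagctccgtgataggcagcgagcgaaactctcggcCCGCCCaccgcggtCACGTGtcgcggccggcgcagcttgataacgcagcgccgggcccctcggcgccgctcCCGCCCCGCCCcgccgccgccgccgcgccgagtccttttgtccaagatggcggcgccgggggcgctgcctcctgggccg
Rbm15 held 2 CCAAT boxes and 1 GC box at a GC content of 54.3%, and Rbm15b held 3 GC boxes, of which the last 2 overlap, and 2 E-boxes at 75.3%. Of the 32851 promoters in the table, 37.4% held CCAAT, 35.7% GGGCGG and 7.2% CACGTG, and the median GC content was 52.7%. The GC box was the searched motif common to both windows. It was not particular to them: the promoters of Wtap, Zc3h13 and Cbll1 held it too, and those of Mettl3 and Mettl16 did not. A match here is a description of the letters only.

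Mettl16 (chr11:74770830-74828525, plus strand), the separate methyltransferase, differed between KO and WT at a single day but was lower with Dex at days 2, 4 and 6, as Wtap, Virma, Cbll1 and Rbm15 were. At day 0 WT was at 33.38 and 35.40 FPKM and KO at 36.31 and 35.08, overlapping, and at day 6 WT was at 22.62 and 20.71 and KO at 22.83 and 21.90, again overlapping (adjusted p = 0.423 and 0.457). KO was higher at day 4, at 29.11 and 28.40 FPKM against 18.42 in both WT libraries, by 0.62 ± 0.05 (SE, adjusted p = 2.42e-09). The fusion line started lower, at 24.24 and 21.55 FPKM without Dex and 24.43 and 23.07 FPKM with Dex at day 0. Dex against no Dex was -0.59 ± 0.05 at day 2 and -0.28 ± 0.05 at day 6 (SE, adjusted p = 2.48e-08 and 0.000146). The day 4 difference of -0.19 (adjusted p = 0.00591) lost its call without replicate 1 of the cultures without Dex (-0.14, adjusted p = 0.092) or replicate 1 with Dex (-0.15, adjusted p = 0.0677).

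METTL16 is known to methylate hairpins in the Mat2a transcript, which encodes the enzyme that makes S-adenosylmethionine, at the consensus TACAGAGAA. The 3′ UTR of Mat2a-201 (GENCODE M21, GRCm38, sense strand searched) held 5 copies. They are shown, consensus in capitals, with 10 bases on each side. No other of the 13588 tested genes with a coding transcript held as many, and 4.14% held at least 1. From the first to the last the consensus copies lie at chr6:72434245-72434253, chr6:72433461-72433469, chr6:72433282-72433290, chr6:72433167-72433175 and chr6:72432948-72432956, on the minus strand.
Copy 1: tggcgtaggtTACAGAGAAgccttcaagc
Copy 2: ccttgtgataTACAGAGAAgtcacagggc
Copy 3: ctggtgtagcTACAGAGAAaccagcttcc
Copy 4: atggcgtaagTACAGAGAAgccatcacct
Copy 5: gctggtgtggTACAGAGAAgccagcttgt
Mat2a mRNA went down with time in all lines, and in KO more than in WT (interaction -0.62 ± 0.07, SE, adjusted p = 3.35e-07). It went from 147.92 ± 0.40 to 94.60 ± 4.59 FPKM in WT and from 172.30 ± 1.13 to 71.39 ± 3.09 FPKM in KO between day 0 and day 6 (SD, n = 2). KO against WT was 0.22 ± 0.05 at day 0 and -0.40 ± 0.05 at day 6 (SE, adjusted p = 0.00114 and 6.75e-07). At day 6 the fusion line was at 94.51 ± 0.17 FPKM without Dex and 96.32 ± 6.55 FPKM with Dex, near WT. Mettl16 itself did not differ past the threshold between KO and WT at either day.

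**Figure D3:**
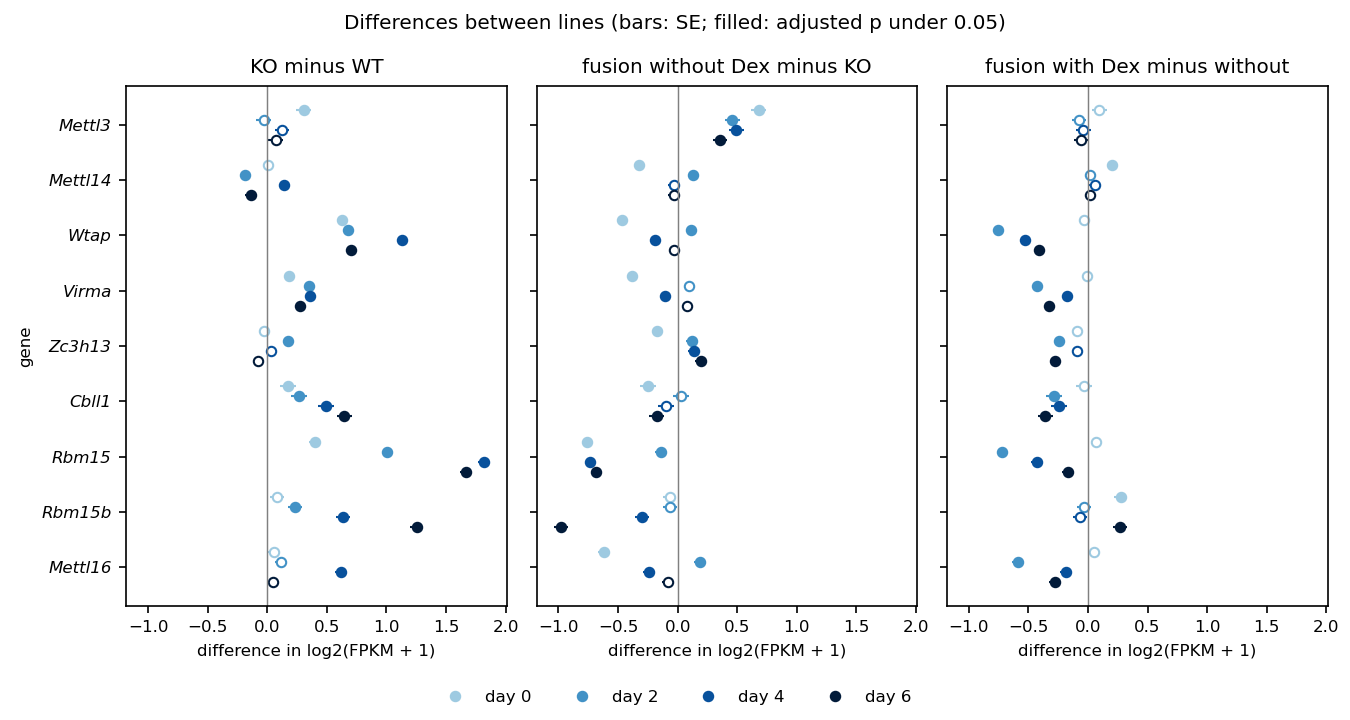
Difference in log2(FPKM + 1) (x axis) for each writer gene (y axis) in KO minus WT, fusion without Dex minus KO, and fusion with Dex minus without, coloured by day. Bars are the SE and filled points passed an adjusted p of 0.05. Rbm15 and Rbm15b stand farthest right in KO minus WT at day 6, and most Dex differences at days 2, 4 and 6 lie left of 0.

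Counted over the 9 genes, KO against WT had 5 higher and none lower at day 0, where 48.2% of all tested genes were called and 18.4% were called higher. At day 2 there were 6 higher and 1 lower (58.9% of all genes called, 37.5% higher and 21.3% lower), at day 4 there were 7 higher and none lower (60.5% called, 36.5% higher and 24% lower) and at day 6 there were 5 higher and 1 lower (65.1% called, 30.9% higher and 34.2% lower). With the compared groups fitted alone, 1 of the 5 remained called at day 0. The median difference over the 9 genes was 0.17, 0.23, 0.49 and 0.27 at days 0, 2, 4 and 6, against -0.04, 0.09, 0.07 and -0.03 over all tested genes. Rescaling lowered the day 2 and day 4 differences of all genes by medians of 0.10 and 0.09. It ended the calls of Zc3h13 and Rbm15b at day 2 and of Mettl14 at days 4 and 6. Mettl3 was then called lower at day 2 (-0.15).

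The fusion line without Dex, which shares the KO libraries with that comparison, was lower than KO for 7 genes and higher for Mettl3 at day 0 (49.1% of all genes called, 29.8% lower and 19.3% higher). The median over the 9 genes was -0.32, against -0.03 over all genes. Rescaling raised all day 0 differences by a median of 0.11, which ended the calls of Zc3h13 (-0.05) and Cbll1 (-0.13). The Zc3h13 call was also lost without KO replicate 1 (-0.14, adjusted p = 0.0505), and without replicate 2 of the cultures without Dex Rbm15b was called lower (-0.18, adjusted p = 0.0105). Mettl16 and Rbm15 had the largest falls, by 0.62 and 0.76. At day 2 there were 5 higher and 1 lower (37% called, 14.8% higher and 22.2% lower). That count was 3 or 4 whenever any of the 4 libraries was left out and 2 with the groups fitted alone, and Mettl3 and Mettl16 kept their calls without each of the 4 libraries. Rescaling ended the day 2 call of Rbm15, the lower gene (-0.11), and Virma was then called higher at day 2 (0.13). At day 4 there were 2 higher and 5 lower (26.7% called, 9.66% higher and 17% lower), among them Rbm15 at -0.73 and Rbm15b at -0.30, and 4 remained with the groups fitted alone. The Virma call at day 4 (-0.11) was lost without any of the 4 libraries, with differences from -0.12 to -0.10. The Zc3h13 call at day 4 (0.14) was lost without KO replicate 2 (0.11), or replicate 1 (0.15) or 2 (0.12) of the cultures without Dex. At day 6 there were 2 higher and 3 lower (49% called, 21.1% higher and 27.9% lower), with Rbm15b at -0.98 ± 0.06 and Rbm15 at -0.68 ± 0.05 (SE, adjusted p = 4.89e-11 and 4.3e-10). The Cbll1 call at day 6 (-0.18) was lost without KO replicate 1 (-0.16), KO replicate 2 (-0.19) or replicate 2 of the cultures without Dex (-0.12), and without this last library Virma was called higher (0.12, adjusted p = 0.0292).

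Dex in the fusion line moved 2 of the 9 genes at day 0, Mettl14 and Rbm15b, both higher (43.4% of all genes called, 27.3% higher). After rescaling 4 were called, with Wtap (-0.12) and Zc3h13 (-0.17) added as lower. With the groups fitted alone 1 was called. The Zc3h13 difference at day 0 (-0.09, adjusted p = 0.117) was called without Dex replicate 1 (-0.15, adjusted p = 0.0342). At day 2 there were 6 lower and none higher (44.3% called, 31.5% lower), namely Wtap, Rbm15, Mettl16, Virma, Cbll1 and Zc3h13. After rescaling Mettl14 was also called at day 2, as higher (0.13, limma adjusted p = 0.0231). At day 4 there were 5 lower (40.2% called, 21.9% lower), with 3 left without replicate 1 of the cultures without Dex and 2 with the groups fitted alone. At day 6 there were 6 lower and 1 higher (42.7% called, 19% lower and 23.8% higher). The medians over the 9 genes were 0.05, -0.29, -0.18 and -0.27 at days 0, 2, 4 and 6, against 0.04, -0.08, -0.01 and 0.01 over all genes. None of the 6 calls at day 2 was lost under any alternative run.

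Set against WT, the cultures with Dex had the fewest calls at day 2, where 3 of the 9 genes were called (29.4% of all genes called, 12.2% higher and 17.2% lower). That is near the share over all genes, which was also lowest at day 2. Mettl3 was 0.35 ± 0.06 higher, Rbm15 0.14 ± 0.05 higher and Mettl16 0.28 ± 0.05 lower (SE, adjusted p = 0.000214, 0.0253 and 0.000284). The Rbm15 call was lost without WT replicate 2 (0.12, adjusted p = 0.153) or Dex replicate 2 (0.11, adjusted p = 0.194). At day 0 there were 3 higher and 5 lower (49.8% called, 19% higher and 30.8% lower), at day 4 there were 6 higher (44.7% called, 25.7% higher) and at day 6 there were 4 higher and 3 lower (61.4% called, 29.2% higher and 32.2% lower). With the groups fitted alone 4 remained at day 0. There Mettl3 was higher by 1.08 ± 0.06 (SE, adjusted p = 5.48e-11), and the Wtap call was lost without WT replicate 1 (0.06, adjusted p = 0.146). The Mettl14 call at day 0 (-0.11) was lost without WT replicate 1 (-0.09), WT replicate 2 (-0.13) or Dex replicate 2 (-0.08), and Cbll1 was called without WT replicate 2 (-0.26, adjusted p = 0.000498). At day 6 the Mettl14 call (-0.16) was lost without WT replicate 2 (-0.12) or Dex replicate 2 (-0.08), and the Zc3h13 call (-0.15) without WT replicate 1 (-0.13). For Wtap, Virma and Cbll1 at day 2 the differences from WT were 0.04 ± 0.03, 0.02 ± 0.04 and 0.01 ± 0.07 (SE), with overlapping libraries. Rbm15b at day 2, at 0.135, was called higher after rescaling (0.164, limma adjusted p = 0.0383).

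Over time within a line, rescaling lowered the day 6 against day 0 differences of all genes by a median of 0.15 in WT and 0.14 in KO. The fusion line had a median of 0.24 without Dex and 0.18 with Dex. In WT 3 writer genes rose and 3 fell (78.1% of all genes called, 43.6% higher and 34.5% lower). The risers were Rbm15b (0.84), Mettl14 (0.40) and Zc3h13 (0.29), and the fallers Mettl16 (-0.64), Rbm15 (-0.43) and Wtap (-0.31). After rescaling Mettl14 was at 0.24, Zc3h13 at 0.12 and Wtap at -0.48, all still called. Virma in WT, at 0.03, was called lower after rescaling (-0.13, adjusted p = 0.00457), and Cbll1 in WT, at 0.07, was called higher without WT day 0 replicate 1 (0.22, adjusted p = 0.00122). In KO all 9 were called, 6 higher and 3 lower (80.4% called, 45% higher and 35.4% lower), with Rbm15b at 2.02 ± 0.06 and Rbm15 at 0.84 ± 0.05. The Virma rise in KO (0.12) was -0.03 after rescaling and lost its call without KO day 6 replicate 2 (0.10), and Zc3h13 in KO (0.24) lost its call after rescaling (0.08). In the fusion line all 9 were called without Dex, 7 higher and 2 lower (81.9% called, 48% higher and 33.9% lower), and with Dex, 6 higher and 3 lower (80.4% called, 46.4% higher and 34% lower). Wtap without Dex, at 0.19, was called lower after rescaling (-0.09, adjusted p = 0.025). With Dex, Virma (0.26) and Cbll1 (0.29) lost their calls after rescaling (0.07 and 0.10). Mettl16 without Dex (-0.11) lost its call without day 0 replicate 1 (-0.03), day 6 replicate 1 (-0.12) or day 6 replicate 2 (-0.10), and was -0.38 after rescaling. Mettl3 fell in the fusion line by 0.53 ± 0.06 without Dex (0.80 after rescaling) and 0.68 ± 0.06 with Dex, while in WT its libraries at days 0 and 6 overlapped (0.03, adjusted p = 0.657).

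An interaction contrast tested whether the KO difference itself changed between day 0 and day 6. It passed for 4 of the 9 genes (56.9% of all genes called, 31.1% higher and 25.8% lower). The KO difference grew for Rbm15 by 1.27 ± 0.07, for Rbm15b by 1.17 ± 0.08 and for Cbll1 by 0.48 ± 0.09 (SE, adjusted p = 5.5e-12, 3.81e-10 and 0.00023). For Mettl3 it shrank, by -0.23 ± 0.09 (SE, adjusted p = 0.0294), a call lost when any of 5 of the 8 libraries was left out (those calls at -0.24 to -0.16). For Wtap it did not pass (0.07 ± 0.05, adjusted p = 0.206), but did without WT day 0 replicate 1 (0.15, adjusted p = 0.00317). Mettl14 (-0.14, adjusted p = 0.0578) was called without WT day 6 replicate 1 (-0.18), KO day 0 replicate 2 (-0.18) or KO day 6 replicate 1 (-0.17). The Dex difference changed for 7 of the 9 genes (48.7% of all genes called, 25.9% lower), each toward lower values with Dex at day 6, and for Wtap by -0.38 ± 0.05 (SE, adjusted p = 3.27e-06).

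**Figure D4:**
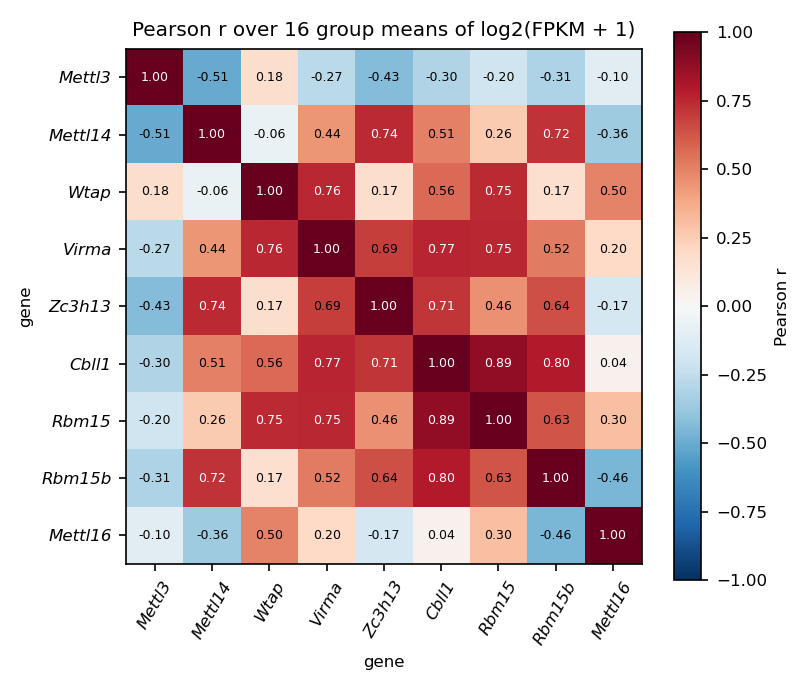
Pearson r between writer genes (both axes) over the 16 group means of log2(FPKM + 1), from blue for negative to red for positive. Cbll1 and Rbm15 are most alike at 0.89, and the row of Mettl3 is mostly blue, with -0.51 for Mettl14. The groups include the fusion line, which overexpresses METTL3.

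The pattern over the 16 group means was compared among the 9 genes as a description, since the groups share lines and days. Cbll1 and Rbm15 were most alike (Pearson r = 0.886), then Cbll1 and Rbm15b (0.796), Virma and Cbll1 (0.765) and Wtap and Virma (0.756). Mettl14 went with Zc3h13 (0.743). Mettl3 had negative values with 7 of the 8 other genes, down to -0.506 with Mettl14, and its highest was 0.179 with Wtap. The groups include the fusion line, which overexpresses METTL3. Mettl3 means were at least 46.61 FPKM in its groups and at most 43.36 FPKM in WT and KO groups. The part of the fusion line in these values was not tested. Rbm15 and Rbm15b correlated at 0.631.

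Among 8926 candidate genes with a mean of at least 5 FPKM, those closest to Mettl3 were Ndufb7 (r = 0.758) and Rex1bd (0.747). For the partners the closest were Zfp146 (0.963) and Ift80 (0.958) for Mettl14, Dis3l (0.906) and Mrps2 (0.900) for Wtap, and Angel2 (0.926) and Smarcal1 (0.920) for Virma. Zc3h13 was closest to Chd6 (0.932) and Asap1 (0.929), and Cbll1 to Ythdf2 (0.954), an m6A reader, and Thumpd1 (0.933). Med18 (0.975) and Champ1 (0.957) were closest to Rbm15, Bicra (0.973) to Rbm15b, and Akap8 (0.961) and Dcun1d3 (0.913) to Mettl16. None of the 9 was among the 2 genes closest to another, and the best match of Mettl3 was lower than that of each other member. The groups of the fusion line, with more Mettl3 mRNA, entered this match as well, and their part was not tested.

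Levels were also ordered over the 16 groups. For Rbm15 the order began with KO at days 6, 4 and 2, all apart from their neighbours, and ended with WT at days 6 and 4. In this order 5 of the 15 neighbouring pairs of groups had overlapping libraries for Rbm15, 4 for Rbm15b and 3 for Wtap. For Mettl14 and Cbll1 10 of 15 overlapped, for Mettl3, Zc3h13 and Mettl16 9, and for Virma 7, so most steps in the order of these genes, other than Virma, were within the spread of duplicates.

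Other genes of the m6A pathway, 18 in 4 lists, were measured and tested alongside. In KO against WT at day 6, 7 were higher, 6 lower and 5 not called, with a median difference of -0.03, as over all genes (65.1% of all tested genes called, 30.9% higher and 34.2% lower). Of the 8 readers, 4 were higher and 3 lower, with Igf2bp2 lowest at 58.96 ± 0.06 FPKM in KO and 123.10 ± 1.91 FPKM in WT (SD, n = 2), a difference of -1.05 ± 0.04 (SE, adjusted p = 6.94e-14). Of the 2 erasers, the demethylase Fto was higher, at 44.50 ± 0.88 against 24.87 ± 1.5 FPKM (0.82 ± 0.04, adjusted p = 5.95e-13), and Alkbh5 did not pass (0.07, adjusted p = 0.109). All 3 genes of S-adenosylmethionine supply were lower, Mat2a most. Of the 5 other RNA adenosine methyltransferases and partners, 2 were higher, Pcif1 most at 0.34 ± 0.09 (SE, adjusted p = 0.00294), and 3 were not called. At day 0 the fusion line without Dex was lower than KO for 13 of the 18 and higher for 4, with a median of -0.34, beside the -0.32 of the 9 writer genes (49.1% of all genes called, 29.8% lower and 19.3% higher, median -0.03). Rescaling raised the differences of all genes there by a median of 0.11.

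Transcripts of the 9 genes were also searched for GGACT, the most frequent m6A consensus, on the sense strand of the transcript with the longest coding sequence. All 9 held at least 2, and 90.8% of tested genes held at least 1. Wtap held 5 in 2060 bases (2.43 per kb) and Mettl3 4 in 2025 bases (1.98 per kb), against a median of 1.06 per kb over 13588 genes. Rbm15 held 2 in 4343 bases (0.46 per kb) and Rbm15b 6 in 6511 bases (0.92 per kb). Wtap was therefore the densest and Rbm15 the sparsest of the 9. Methylation of these sites was not measured in these libraries.

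Nr3c1, the glucocorticoid receptor gene, was at 0.50 to 3.17 FPKM in group means. At day 0 WT was highest, at 3.12 ± 0.22 FPKM, with KO at 2.13 ± 0.19, the fusion line without Dex at 1.58 ± 0.05 and with Dex at 1.72 ± 0.10 FPKM (SD, n = 2). At day 2 the fusion line was at 2.66 ± 0.26 FPKM without Dex and 1.60 ± 0.17 with Dex, and WT at 1.70 ± 0.46 FPKM. At day 4 the values were 1.37 ± 0.01, 0.58 ± 0.08 and 0.65 ± 0.04 FPKM. Dex against no Dex was -0.50 ± 0.10 at day 2 and -0.58 ± 0.10 at day 4 (SE, limma adjusted p = 0.000298 and 6.81e-05) and did not pass at days 0 and 6 (adjusted p = 0.59 and 0.511).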

How the data were processed

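The deposited table gives FPKM, a length- and depth-scaled level computed by the authors, for 55492 rows in each of 32 libraries. STAR, Cuffdiff and mm10 are named in the submitters' processing notes, without versions or roles. Reads were paired-end, 150 bases, per the labels. Strandedness is not given in the sources used here. Column names were matched to samples by library name, and 99.5% of row IDs matched GENCODE M21 (GRCm38).

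Tests used limma 3.58.1 in R 4.3.3 on log2(FPKM + 1), with a mean-variance trend, over 16276 genes with at least 2 of 32 libraries at 1 FPKM or more. The 16 group means were estimated together from the 32 libraries, leaving 16 residual degrees of freedom. Calls needed a two-sided Benjamini-Hochberg adjusted p under 0.05 over all tested genes, in 22 comparisons. Differences are on the log2(FPKM + 1) scale and understate changes of low genes. Depth was estimated from single-transcript genes of 600 to 1500 bases, a range set, with a fragment-length correction, after a first estimate left fewer values whole.

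Alternatives were a pseudocount of 0.1, no filter, median-of-ratios rescaling, a fit of only the groups compared, a block for the replicate number, and each library left out in turn. With a library left out, the lone library was assumed to vary like the other groups. The writer genes, pathway lists and markers were chosen with earlier results of these data known. Named genes were the 9 members, Mat2a, Nr3c1, the most changed gene per pathway list in KO against WT at day 6, and the 2 genes most like each member, of which 1 is not reported here. Alkbh5, Tox4 and Manf, the ratios, and the promoter and GGACT searches were chosen after values were seen.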

Additional observations from a re-analysis of the deposited data

Results flagged for a closer look

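The difference between KO and WT changed between day 0 and day 6, by the interaction contrast in limma, for 4 of the 9 writer genes, where 56.9% of all tested genes were called. It grew by 1.27 ± 0.07 (SE, adjusted p = 5.5e-12) for Rbm15, by 1.172 ± 0.081 (adjusted p = 3.81e-10) for Rbm15b and by 0.476 ± 0.093 (adjusted p = 0.00023) for Cbll1, in log2(FPKM + 1). For Mettl3 the change was -0.232 ± 0.087 (adjusted p = 0.0294), and it lost the threshold without WT day 0 replicate 2, WT day 6 replicate 1, KO day 0 replicate 1, or KO day 6 replicate 1 or 2, and without the filter on low values (adjusted p = 0.054).

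The difference between the fusion cultures with and without Dex changed between day 0 and day 6 for 7 of the 9 writer genes, where 48.7% of all tested genes were called. The changes were -0.375 ± 0.049 for Wtap, -0.318 ± 0.054 for Virma, -0.332 ± 0.071 for Mettl16, -0.324 ± 0.093 for Cbll1 and -0.238 ± 0.066 for Rbm15 (SE, limma adjusted p = 3.27e-06, 6.87e-05, 0.000658, 0.00734 and 0.00554). For Mettl14 it was -0.19 ± 0.063 and for Zc3h13 -0.185 ± 0.063 (adjusted p = 0.0172 and 0.021). Both were lost after rescaling (-0.123 and -0.116) and with the compared groups fitted alone (adjusted p = 0.1 and 0.0596). Mettl14 was also lost without fusion day 0 replicate 2 without Dex (-0.167), day 0 replicate 1 with Dex (-0.158) or day 6 replicate 2 with Dex (-0.115). Zc3h13 was also lost without fusion day 0 replicate 2 (-0.171) or day 6 replicate 1 (-0.161) without Dex, or day 0 replicate 1 (-0.13) or day 6 replicate 1 (-0.168) with Dex. Mettl3 was called without day 6 replicate 1 without Dex (-0.249, adjusted p = 0.0243).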

How the results depend on the processing

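With a pseudocount of 0.1 all 198 differences of the writer genes kept their direction and side of the threshold. Without the filter 8 calls were lost. With a replicate block every count of calls stayed within 1.5 times and 1 difference changed, Mettl16 in KO against WT at day 2 (0.116, adjusted p = 0.0468, now called). The numbers do not pair the libraries: correlations of duplicate differences between groups ran from -0.09 to 0.13, with 4 of 120 over 0.1.

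Rescaling by median-of-ratios factors, which shifts all genes of a library together, reversed 15 differences or brought them to 0. Why the factors differed between groups was not tested. For KO against WT these were Mettl16 at day 2 (0) and Zc3h13 at day 4 (-0.068). For the fusion without Dex against KO they were Rbm15b at day 0 (0.057) and Mettl14 at day 4 (0.01). For Dex against no Dex they were Rbm15 (-0.002) and Mettl16 (-0.028) at day 0 and Mettl3 (0.039) and Rbm15b (0.076) at day 2, and the number of writer genes called at day 0 became 4. For day 6 against day 0 they were Mettl3 (-0.135), Virma (-0.129) and Cbll1 (-0.089) in WT, Virma in KO (-0.03) and Wtap without Dex (-0.088). In the interactions they were Mettl16 for KO (0) and Rbm15b for Dex (0.061).

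With only the compared groups in the fit, fewer libraries estimate the spread. KO against WT at day 0 then had 3357 genes called, 1 of them a writer gene. Called genes numbered 3941 (2 writer genes) on day 2 and 2284 (4 writer genes) on day 4 when the fusion without Dex was set against KO. Dex against WT had 4342 (4 writer genes) on day 0 and 2603 on day 2. The effect of Dex was called for 1 writer gene on day 0 and 2 on day 4.

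With each library left out in turn, the number of writer genes called moved by over 1.5 times for the fusion without Dex against KO on day 2 (3 to 4) and for the effect of Dex on day 4 (3 to 5). Differences that changed sign had not been called with all libraries. For KO against WT they were Mettl14 (-0.027 to 0.038) and Zc3h13 (-0.063 to 0.006) on day 0, Mettl3 on day 2 (-0.064 to 0.004) and Mettl16 on day 6 (-0.016 to 0.106). For the fusion without Dex against KO they were Rbm15b on day 0 (-0.184 to 0.048) and Cbll1 on day 2 (-0.004 to 0.055). For the effect of Dex they were Cbll1 (-0.072 to 0.004), Mettl16 (-0.029 to 0.134) and Virma (-0.041 to 0.019) on day 0, Mettl14 on day 2 (-0.029 to 0.071), and Mettl14 (-0.06 to 0.09) and Mettl3 (-0.152 to 0.043) on day 6. For Dex against WT they were Cbll1 on day 0 (-0.263 to 0.041), Cbll1 (-0.015 to 0.036), Virma (-0.009 to 0.049), Wtap (-0.001 to 0.072) and Zc3h13 (-0.002 to 0.103) on day 2, and Virma on day 6 (-0.012 to 0.058). Over time in WT they were Cbll1 (-0.087 to 0.218) and Mettl3 (-0.042 to 0.104). In the interactions they were Mettl16 for KO (-0.069 to 0.053) and Rbm15b for Dex (-0.119 to 0.112).

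Counting error was at most 3.43% for any writer gene in any library. WT day 0 duplicates differed most.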
